A study of Mus musculus with 6 samples.

Results

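Among the mRNAs measured in dorsal midbrain of *Ezh2* cko and control embryos at embryonic day 10.5 were those of the Notch pathway and of the proneural basic helix-loop-helix (bHLH) factors. The set was listed by name, from receptors, ligands, Fringe enzymes, the nuclear complex and Numb proteins to Hes and Hey repressors, proneural and neuronal differentiation bHLH factors and Olig factors. Of 37 listed genes, 36 had at least 1 probe set annotated to them alone, of 18193 genes with such a probe set in all. *Bhlhe22* had none and was not analysed here.

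Total RNA from 3 *Ezh2* cko and 3 control samples, each group from 2 litters, was measured on Affymetrix A430 arrays, 1 for each sample, and the labels give C57BL/6 as the strain. The *Ezh2* cko carried Wnt1-Cre and the floxed *Ezh2*[SET] allele in the homozygous state. According to the methods, controls were littermates of either of 2 kinds, those with the same homozygous floxed allele but no Wnt1-Cre, and those with Wnt1-Cre and 1 floxed allele of *Ezh2* beside a wild-type one. The labels call every control WT, so whether a control array came from a Cre-carrying embryo cannot be told, nor which litter any sample came from. By antibody staining, the paper reports that Ezh2 protein was already lost in the midbrain at the stage of the arrays. In its stainings for recombination, made at a later stage than the arrays, Wnt1-Cre recombined the midbrain completely in its caudal part and only partly rostrally. Wnt1-Cre is also active in the neural crest. The *Ezh2* cko tissue on the arrays may therefore still hold cells with Ezh2, in a share not known for this stage. The samples are described as 3 dissected midbrains in each group, so at least 2 samples of a group shared a litter, and litter could not enter any fit.

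Notch receptors are cut after they bind a ligand on a neighbouring cell, and the freed intracellular domain joins Rbpj and Mastermind proteins on DNA to switch on repressors of the Hes and Hey families. In the neural tube these repressors hold back proneural factors such as Neurog1, Neurog2 and Atoh1, which in turn raise the Notch ligands and start neuronal differentiation, so that only some neighbouring cells become neurons at a time. Ezh2 is the enzyme of Polycomb repressive complex 2 that methylates lysine 27 of histone H3, and several developmental transcription factor genes are among the genes that this mark covers in many tissues.

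*Ezh2* itself gave signals of 11.79, 11.74 and 11.72 on the *Ezh2* cko arrays, against 11.69, 11.76 and 11.66 on the control arrays, with groups that overlapped. The files do not say whether its 1 probe set lies in the deleted part, and this value therefore does not check the labels. Neural progenitor markers gave bright signals, for example *Sox2* with a signal of 12.04, 12.20 and 12.32 in the *Ezh2* cko and 12.13, 12.05 and 12.29 in the controls, and *Pax7*, a gene of the dorsal midbrain, with 10.15, 9.80 and 9.78 in the *Ezh2* cko and 9.81, 9.84 and 9.91 in the controls. All values are log2 signals after RMA, a normalization that gives every array nearly the same distribution. Medians of the 6 arrays were 5.68 to 5.72. Control replicate 1 had a lower quartile of 4.33, against 4.25 to 4.26 on the other arrays. Its upper quartile was 8.12, against 8.19 to 8.22. The arrays measured bulk tissue, in which fewer cells of a type and less RNA per cell cannot be told apart.

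None of the 36 members passed an adjusted p of 0.05 in limma over all probe sets. Over all genes that rule called 0.302%, with 54 genes (0.297%) higher and 1 gene (0.0055%) lower in the *Ezh2* cko. None met the threshold of the methods either, which joins a minimum fold to a limit of 0.01 on the unadjusted p and which 0.407% of all genes met (0.374% higher and 0.033% lower). The methods name no test for that p, and the p from limma was used here. At an unadjusted p under 0.05 there were 7 members, 19.4% of those measured, against 8.87% of all genes. Of these 7, 6 were higher in the *Ezh2* cko (6.12% of all genes) and 1 was lower (2.75% of all genes). Without *Ezh2* cko replicate 3 the 7 became 2, while 6.82% of all genes had such a p. Without control replicate 2 the 7 became 4, against 8.29% of all genes. Members whose groups did not overlap numbered 5, or 13.9%, close to the 15.4% of all genes. In 4 of them all *Ezh2* cko arrays were the higher ones (7.52% of all genes) and in 1 the lower ones (7.88% of all genes). The smallest adjusted p of any member was 0.148, for *Hes1*, and 146 other genes had a smaller p than *Hes1*.

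The log2 differences of the 36 members, *Ezh2* cko minus control, were positive for 18 and negative for 18, while 43% of all genes were positive and 57% negative. Their median was -0.00050, against -0.019 over all genes, and they ranged from -0.24 for *Lfng* to 0.66 for *Atoh1*. For 32 of the 36 the 95% confidence interval lay within a 1.5-fold change either way, and for 34 within a 2-fold change. Standard errors ran from 0.073 to 0.34 with a median of 0.10. Members scattered a little more between arrays of 1 group than other genes did, with a median pooled SD of 0.138, against 0.110 over all genes.

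**Figure D1:**
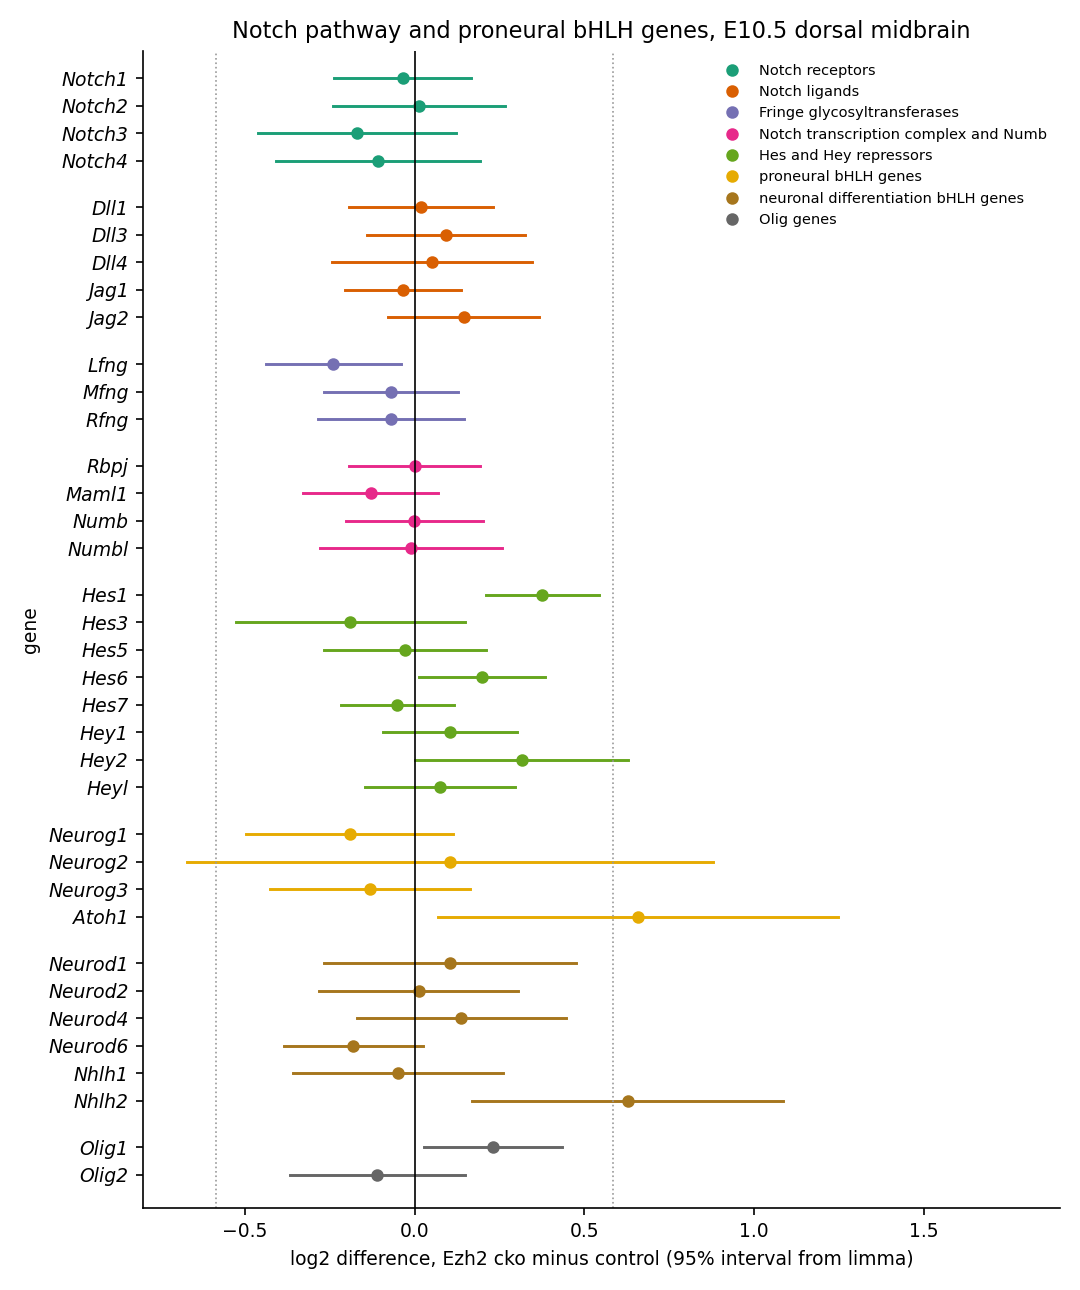
Log2 difference (x axis, *Ezh2* cko minus control) of each of the 36 members (y axis), with its 95% confidence interval from limma, coloured by role. The dotted lines mark a 1.5-fold change, and all intervals but those of *Hey2*, *Neurog2*, *Atoh1* and *Nhlh2* stay between them.

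**Figure D2:**
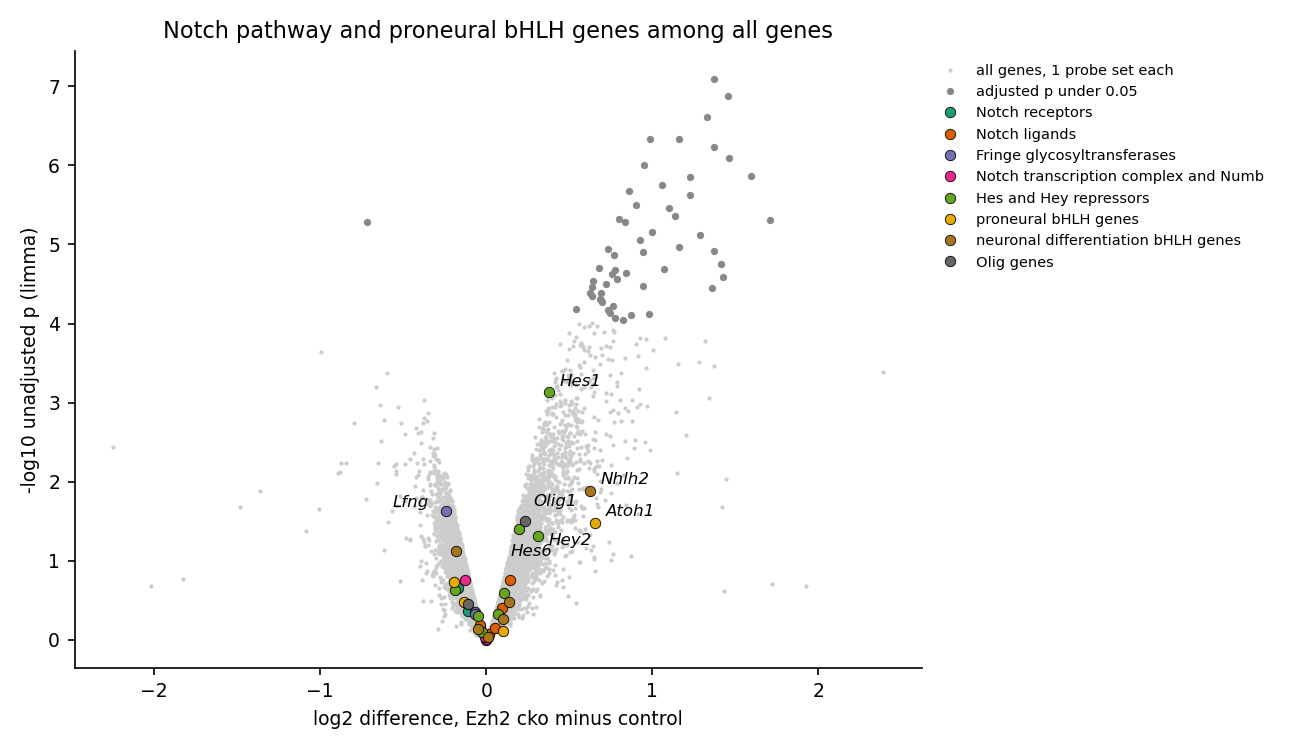
Log2 difference, *Ezh2* cko minus control (x axis), against -log10 of the unadjusted p from limma (y axis) for all 18193 genes with 1 probe set each; genes past the adjusted p are dark grey and the members are coloured by role. The 7 named members have an unadjusted p under 0.05, and none of the coloured points lies among the dark grey ones.

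The promoters of 4 members are shown because they contain TGGGAA, the core of the sequence that Rbpj binds, and because *Hes5* is a textbook Rbpj target in neural progenitors while *Lfng*, *Hey2* and *Nhlh2* are those among the 7 members above whose window held these letters. Each line gives the 250 bases before the start of the gene in RefSeq on GRCm38.p6, read 5′ to 3′ on the strand of the gene, with TGGGAA or its reverse complement TTCCCA in capitals. The windows are chr5:140607091-140607340 (plus strand) for *Lfng*, chr4:154960673-154960922 (plus strand) for *Hes5*, chr10:30842784-30843033 (minus strand) for *Hey2* and chr3:102009895-102010144 (plus strand) for *Nhlh2*.
Lfng: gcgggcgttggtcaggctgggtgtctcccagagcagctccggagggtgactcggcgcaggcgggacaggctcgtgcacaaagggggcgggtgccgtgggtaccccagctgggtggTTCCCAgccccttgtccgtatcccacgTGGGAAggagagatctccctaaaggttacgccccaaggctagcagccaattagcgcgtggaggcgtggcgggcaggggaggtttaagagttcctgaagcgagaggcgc
Hes5: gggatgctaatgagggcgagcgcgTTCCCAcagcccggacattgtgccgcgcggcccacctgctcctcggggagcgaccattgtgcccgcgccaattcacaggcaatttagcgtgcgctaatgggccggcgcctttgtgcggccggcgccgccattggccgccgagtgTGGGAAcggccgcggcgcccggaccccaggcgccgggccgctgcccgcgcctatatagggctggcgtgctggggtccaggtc
Hey2: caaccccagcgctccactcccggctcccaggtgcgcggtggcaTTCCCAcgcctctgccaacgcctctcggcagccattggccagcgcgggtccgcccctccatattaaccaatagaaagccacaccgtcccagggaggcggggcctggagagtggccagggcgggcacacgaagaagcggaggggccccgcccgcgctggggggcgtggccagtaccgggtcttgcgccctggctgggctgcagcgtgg
Nhlh2: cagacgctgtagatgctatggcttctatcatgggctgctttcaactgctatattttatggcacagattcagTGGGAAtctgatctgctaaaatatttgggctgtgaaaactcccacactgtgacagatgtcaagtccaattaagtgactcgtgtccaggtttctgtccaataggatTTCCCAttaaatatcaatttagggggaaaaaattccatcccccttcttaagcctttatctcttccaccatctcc
In *Hes5* the letters begin 226 and 82 bases before the start, in *Lfng* 135 and 108, in *Nhlh2* 179 and 74, and in *Hey2* 207. RefSeq windows matched 30 of the 37 listed genes, with 36 windows among them, and not *Mfng*, *Hes1*, *Hes3*, *Hey1*, *Heyl*, *Bhlhe22* and *Olig1*. The letters occurred on either strand in 8 of these 36 windows (22.2%), belonging to 7 members, and in 21.6% of all 32851 windows of this length. Members with the letters besides the 4 shown were *Rbpj*, *Hes7* and *Nhlh1*. Their log2 differences were 0.00061, -0.051 and -0.048, none with an unadjusted p under 0.05 in limma. A further pair of motifs was searched on both strands, the N-box CACNAG bound by Hes proteins and the E-box CANNTG bound by proneural factors. No run of 6 letters matches more than 1 of the 3 motifs, although sites can share bases. The N-box was in 36.1% of the member windows and in 36.7% of all windows, and the E-box in 58.3% of the member windows and 66.2% of all. A match describes the letters in a window and no measured binding.

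None of the 4 receptors had an unadjusted p under 0.05, and their log2 differences ran from -0.17 to 0.012 with a median of -0.071. *Notch3*, with the lowest difference of them, had a log2 signal of 10.16, 10.09 and 10.29 on the *Ezh2* cko arrays, against 10.11, 10.61 and 10.33 on the control arrays (log2 difference -0.17, 95% CI -0.46 to 0.12). The groups overlapped, and control replicate 2 was the highest of all 6 arrays. Without control replicate 1 the difference was -0.29 (unadjusted p = 0.0352 in limma), and without control replicate 2 it was -0.039. *Notch2*, at the other end, had 9.46, 9.13 and 9.11 on the *Ezh2* cko arrays, against 9.10, 9.29 and 9.27 on the control arrays (log2 difference 0.012, 95% CI -0.24 to 0.27). For *Notch2* the highest array was *Ezh2* cko replicate 1 and the lowest control replicate 1, and a second probe set of the gene gave -0.22 (unadjusted p = 0.133 in limma). *Notch1*, the main receptor of neural progenitors, is given for that role and not for its values, with 10.57, 10.44 and 10.43 on the *Ezh2* cko arrays, against 10.39, 10.61 and 10.55 on the control arrays (log2 difference -0.035, 95% CI -0.24 to 0.17).

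Log2 differences of the 5 ligands lay between -0.035 and 0.14. *Dll1*, *Dll3*, *Dll4* and *Jag2* had positive differences and *Jag1* a negative one, with a median of 0.051. *Jag2* had the highest difference among the ligands, with signals of 7.53, 7.40 and 7.62 on the *Ezh2* cko arrays, against 7.50, 7.38 and 7.23 on the control arrays (log2 difference 0.14, adjusted p = 0.800 in limma). Its groups overlapped on this probe set. On the other *Jag2* probe set they did not, with 6.76, 6.89 and 6.78 in the *Ezh2* cko and 6.47, 6.61 and 6.63 in the controls (log2 difference 0.24, unadjusted p = 0.0174 and adjusted p = 0.515 in limma). *Jag1*, which like *Jag2* encodes a ligand of the Serrate type, had 10.82, 10.72 and 10.81 on the *Ezh2* cko arrays, against 10.77, 10.83 and 10.86 on the control arrays (log2 difference -0.035, 95% CI -0.21 to 0.14). *Dll1*, the ligand most used between neural progenitors and newborn neurons, had a log2 difference of 0.019 (95% CI -0.19 to 0.23). For *Dll3*, whose protein acts inside the cell that makes it, the difference was 0.092. *Dll4*, best known from endothelium, stood at 0.051 on one probe set and -0.062 on another, and of 12 endothelium markers none had an unadjusted p under 0.05 (median log2 difference 0.073).

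All 3 Fringe genes, whose enzymes lengthen sugars on Notch receptors and so alter which ligands they answer to, had negative differences, with a median of -0.070. *Lfng* was the 1 member lower in the *Ezh2* cko at an unadjusted p under 0.05. Its signals were 7.57, 7.56 and 7.35 on the *Ezh2* cko arrays, against 7.74, 7.78 and 7.67 on the control arrays, so that every *Ezh2* cko array lay below every control. The log2 difference was -0.24 with an SE of 0.087, which is 1.18-fold lower (unadjusted p = 0.0238, adjusted p = 0.561 in limma). Its second probe set gave 0.060 (unadjusted p = 0.615 in limma). *Mfng*, with the highest difference of the Fringe genes, had 8.70, 8.58 and 8.74 on the *Ezh2* cko arrays, against 8.67, 8.85 and 8.71 on the control arrays and groups that overlapped (log2 difference -0.070). *Rfng* stood at -0.070 as well.

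*Rbpj*, the DNA-binding protein of the pathway, and *Maml1*, its Mastermind co-activator, marked the ends of the nuclear complex and Numb group. *Rbpj* had 10.46, 10.47 and 10.55 on the *Ezh2* cko arrays, against 10.38, 10.49 and 10.61 on the control arrays (log2 difference 0.00061, 95% CI -0.19 to 0.19). Of its other probe sets 1 gave -0.17 (unadjusted p = 0.0669 in limma), with every *Ezh2* cko array below every control. *Maml1* had 9.89, 10.04 and 10.12 on the *Ezh2* cko arrays, against 10.09, 10.13 and 10.22 on the control arrays (log2 difference -0.13, unadjusted p = 0.175 in limma), and the groups overlapped through *Ezh2* cko replicate 3. *Numb* and *Numbl*, which encode adaptors that dampen Notch signalling in 1 daughter of a dividing cell, had differences of -0.0016 and -0.010.

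The Hes and Hey repressors held 3 of the 7 members at an unadjusted p under 0.05, *Hes1*, *Hes6* and *Hey2*, all higher in the *Ezh2* cko and all without overlap between the groups. Of the 8 genes, 5 had positive and 3 negative differences, with a median of 0.089. *Hes1*, a repressor that keeps progenitors undifferentiated and that also responds to signals other than Notch, had 8.89, 8.80 and 8.77 on the *Ezh2* cko arrays, against 8.43, 8.46 and 8.46 on the control arrays. The means were 8.82 ± 0.063 in the *Ezh2* cko and 8.45 ± 0.017 in the controls (SD, n = 3 each). The log2 difference was 0.38 with an SE of 0.073 and a 95% CI of 0.21 to 0.54, which is 1.30-fold (unadjusted p = 0.000745, adjusted p = 0.148 in limma). The lowest *Ezh2* cko array stood 0.32 above the highest control, and the 3 controls lay within 0.031 of each other. When the probe sets of each gene were averaged before the fit, with p-values adjusted over 18193 genes in place of 45037 probe sets, the values of *Hes1* stayed as they are because it has 1 probe set, and its adjusted p was 0.0499 in limma. Over all alternatives tried its adjusted p ran from 0.0499 to 0.408.

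*Hes6*, whose protein blocks Hes1 and is itself switched on by proneural factors, had 10.80, 10.63 and 10.70 on the *Ezh2* cko arrays, against 10.44, 10.58 and 10.52 on the control arrays. Each *Ezh2* cko array was above each control, by little between *Ezh2* cko replicate 2 and control replicate 2. The log2 difference was 0.20 with an SE of 0.082 (unadjusted p = 0.0397, adjusted p = 0.635 in limma), and the second probe set gave 0.18 with groups that overlapped. *Hey2*, a Notch target best known from heart and arteries, had 7.34, 7.38 and 7.57 on the *Ezh2* cko arrays, against 6.80, 7.26 and 7.28 on the control arrays. Control replicate 1 was the lowest of all arrays, and the highest control came within 0.058 of the lowest *Ezh2* cko array. The log2 difference of *Hey2* was 0.31 with an SE of 0.14 (unadjusted p = 0.0493, adjusted p = 0.660 in limma), and without control replicate 1 it was 0.16 (unadjusted p = 0.147 in limma).

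The other 5 Hes and Hey genes had no unadjusted p under 0.05, with 2 positive and 3 negative differences. *Hes3*, which is expressed around the border of midbrain and hindbrain, had the lowest difference, with 5.84, 5.79 and 5.58 on the *Ezh2* cko arrays, against 6.27, 5.75 and 5.75 on the control arrays (log2 difference -0.19, adjusted p = 0.829 in limma), and control replicate 1 alone stood above the other 5 arrays. *Hes5*, the classical Notch target of neural progenitors and given for that reason, had 11.45, 11.71 and 11.77 on the *Ezh2* cko arrays, against 11.61, 11.62 and 11.79 on the control arrays. These groups overlapped (log2 difference -0.028, 95% CI -0.27 to 0.21), and the second probe set gave -0.12. *Hey1*, *Heyl* and *Hes7*, the last known from the segmentation clock of the somites, lay between -0.051 and 0.10. *Hes5* and *Hey2* both hold TGGGAA in the window printed above, *Hes5* with 2 sites and *Hey2* with 1.

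**Figure D3:**
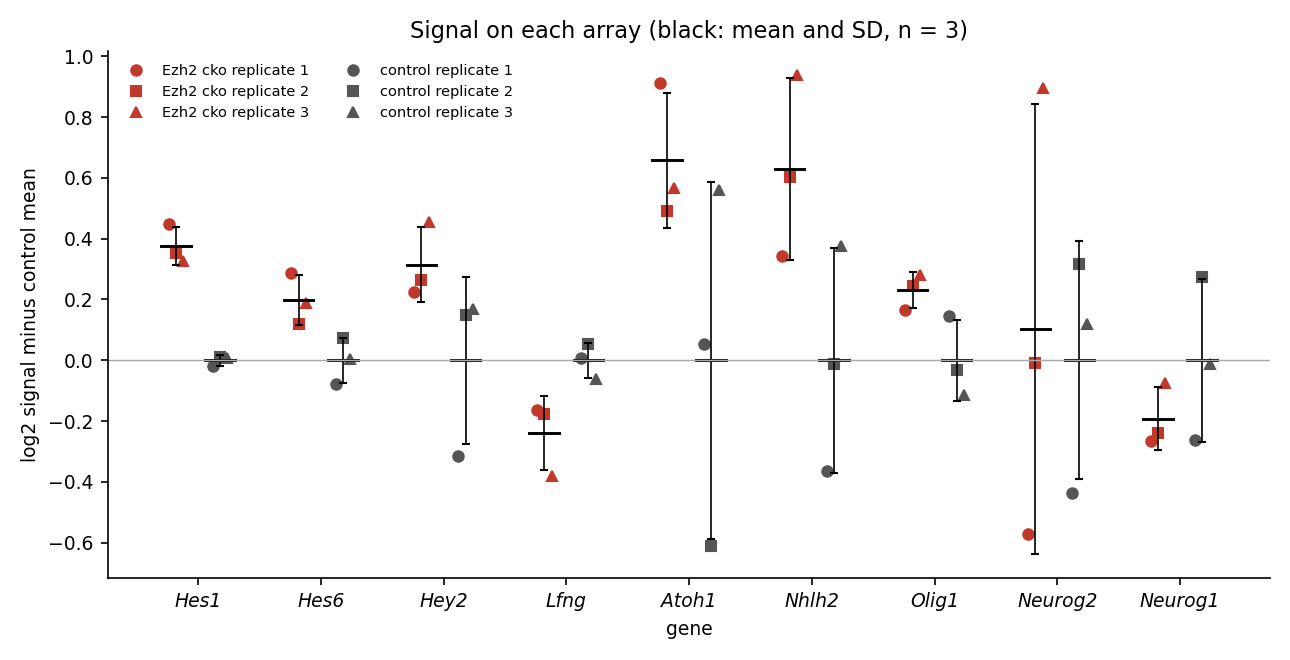
Log2 signal of 9 members on each array, minus the mean of the controls of that gene (y axis), by gene (x axis), with the *Ezh2* cko arrays in red to the left of the control arrays in grey; black bars are the mean and SD (n = 3 per group). In *Hes1*, *Hes6*, *Hey2* and *Olig1* every red point is above every grey one and in *Lfng* below, while in *Atoh1* and *Nhlh2* control replicate 3 reaches into the red points and in *Neurog2* the points of both groups spread widely.

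*Atoh1*, which specifies dorsal neurons of the hindbrain and spinal cord, had the largest difference of any member, 0.66 on the log2 scale. Its signals were 7.77, 7.35 and 7.43 on the *Ezh2* cko arrays, against 6.91, 6.25 and 7.42 on the control arrays. Control replicate 3 lay above *Ezh2* cko replicate 2, and the controls spread over 1.17 log2 units. The SE was 0.26, the 95% CI 0.067 to 1.25 and the fold 1.58 (unadjusted p = 0.0329, adjusted p = 0.606 in limma). Without control replicate 2 the difference was 0.35 (unadjusted p = 0.0906 in limma), and without control replicate 3 it was 0.94 (unadjusted p = 0.00212, adjusted p = 0.245 in limma).

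None of the 3 Neurogenins, which start differentiation in several neural and other lineages, had an unadjusted p under 0.05. *Neurog1*, with the lowest difference of the proneural genes, had 9.38, 9.40 and 9.57 on the *Ezh2* cko arrays, against 9.38, 9.92 and 9.63 on the control arrays (log2 difference -0.19, adjusted p = 0.805 in limma), with overlapping groups and the highest value on control replicate 2. Without control replicate 1 its difference was -0.32 (unadjusted p = 0.0236 in limma), and without control replicate 2 it was -0.055. *Neurog2*, singled out after its values were seen because it scattered most, had 6.95, 7.52 and 8.42 on the *Ezh2* cko arrays, against 7.09, 7.84 and 7.65 on the control arrays. *Ezh2* cko replicates 1 and 3 were the lowest and the highest of all 6 arrays, 1.47 log2 units apart. The log2 difference was 0.10 with an SE of 0.34 and a 95% CI of -0.67 to 0.88, so that changes of up to 1.5-fold either way are not distinguished from none. It was -0.29 without *Ezh2* cko replicate 3 and -0.11 without control replicate 1. By assays other than the arrays, in situ hybridization and quantitative RT-PCR, the paper reports *Neurog2* upregulated in the *Ezh2* cko midbrain. The stage of those assays is not stated beside that result. *Neurog3*, best known from the endocrine pancreas, stood at -0.13, at -0.28 without *Ezh2* cko replicate 3 (unadjusted p = 0.0129 in limma) and at -0.039 without *Ezh2* cko replicate 2.

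Of the differentiation bHLH genes, which act in cells that have left or are leaving the cell cycle, 4 of 6 measured members had positive and 2 had negative differences, with a median of 0.058. *Nhlh2*, which is expressed in newborn neurons, was the 1 member of the group at an unadjusted p under 0.05. It had 9.96, 10.22 and 10.56 on the *Ezh2* cko arrays, against 9.25, 9.61 and 9.99 on the control arrays. Control replicate 3 lay just above *Ezh2* cko replicate 1, and the other *Ezh2* cko arrays were above all controls. Means were 10.25 ± 0.30 in the *Ezh2* cko and 9.62 ± 0.37 in the controls (SD, n = 3 each). The log2 difference was 0.63 with an SE of 0.20 and a 95% CI of 0.17 to 1.09, or 1.55-fold (unadjusted p = 0.0130, adjusted p = 0.468 in limma). Leaving out 1 array at a time gave 0.45 to 0.82, the lowest without control replicate 1.

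*Nhlh1*, the close relative of *Nhlh2* and expressed in the same kind of cell, had a log2 difference of -0.048 (95% CI -0.36 to 0.26). The difference between the 2 genes was not tested. *Neurod6*, with the lowest difference of the group, had dim signals of 3.06, 2.80 and 2.82 on the *Ezh2* cko arrays, against 3.08, 3.06 and 3.09 on the control arrays (log2 difference -0.18, unadjusted p = 0.0760 in limma), and its groups overlapped through *Ezh2* cko replicate 1, without which the difference was -0.26 (unadjusted p = 0.0157 in limma). *Neurod1* and *Neurod4*, which follow the Neurogenins in many neuronal lineages, stood at 0.10 and 0.14. Both were higher on *Ezh2* cko replicate 3 than on any other array. One of the other *Neurod4* probe sets, with dim signals, gave 0.19 (unadjusted p = 0.0478, adjusted p = 0.656 in limma). *Neurod2* gave 0.012 on its brightest probe set and -0.20 on another, where the groups did not overlap (unadjusted p = 0.0340, adjusted p = 0.614 in limma).

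*Olig1*, a factor of ventral progenitors and of the oligodendrocyte lineage, had 4.74, 4.82 and 4.85 on the *Ezh2* cko arrays, against 4.72, 4.54 and 4.46 on the control arrays. Each *Ezh2* cko array was above each control, with a gap of 0.020 between *Ezh2* cko replicate 1 and control replicate 1 (log2 difference 0.23, SE 0.090, unadjusted p = 0.0313, adjusted p = 0.601 in limma). *Olig2*, from the same gene pair, had 3.26, 2.92 and 3.05 on the *Ezh2* cko arrays, against 3.17, 3.05 and 3.34 on the control arrays (log2 difference -0.11) with groups that overlapped. Signals of *Olig1*, *Olig2*, *Neurod6* and *Heyl* were below the median of all probe sets, 5.70, and the files hold no detection calls for them.

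Across their 63 probe sets, the members had 27 besides the brightest ones, in 20 genes. None of the 27 passed the adjusted p (0.189% of all probe sets did), 3 had an unadjusted p under 0.05 (of *Jag2*, *Neurod2* and *Neurod4*, against 7.55% of all probe sets), and 7 had the opposite sign of the brightest probe set of their gene. Those 7 belonged to *Notch1*, *Notch2*, *Dll4*, *Lfng*, *Rbpj*, *Heyl* and *Neurod2*, and apart from *Lfng* their brightest probe sets lay between -0.035 and 0.074.

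Other genes of the pathway were described from lists that were taken whole. Of 39 further Notch pathway genes, such as enzymes that cut, sort or modify receptors and co-factors of Rbpj, 35 were measured. None passed the adjusted p, 3 were higher and 0 lower at an unadjusted p under 0.05, and their median was -0.052 with a range from -0.32 to 0.56. Without control replicate 1 there were 2 higher and 3 lower. *Dtx1*, a Deltex ubiquitin ligase that binds the receptor, had 7.47, 7.34 and 7.61 on the *Ezh2* cko arrays, against 6.89, 7.09 and 7.16 on the control arrays, its *Ezh2* cko arrays all higher than its controls (log2 difference 0.43, adjusted p = 0.266 in limma). *Aph1b*, a subunit of the gamma-secretase that cuts Notch, had 8.54, 8.89 and 8.66 in the *Ezh2* cko and 8.33, 8.33 and 8.48 in the controls, also without overlap (log2 difference 0.31, adjusted p = 0.501 in limma). *Dner*, a Notch ligand of neurons, had 8.58, 8.84 and 9.22 in the *Ezh2* cko and 7.80, 8.49 and 8.67 in the controls and groups that overlapped (log2 difference 0.56, adjusted p = 0.637 in limma). *Nrarp*, a feedback inhibitor that Notch signalling itself switches on, was singled out after its values were seen, with 11.15, 11.28 and 11.22 on the *Ezh2* cko arrays, against 11.22, 11.55 and 11.57 on the control arrays (log2 difference -0.23, adjusted p = 0.696 in limma). Control replicate 1 lay among the *Ezh2* cko arrays and the other controls above them.

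Of 22 other bHLH genes, among them *Id* genes, E proteins and further tissue-specific factors, 21 were measured. None had an unadjusted p under 0.05, at most 1 did in either direction with any 1 array left out, and their median was 0.0017. *Olig3*, a factor of dorsal hindbrain and spinal cord progenitors, had 7.82, 7.24 and 6.52 on the *Ezh2* cko arrays, against 6.88, 5.93 and 6.82 on the control arrays, a log2 difference of 0.65 with overlapping groups (adjusted p = 0.737 in limma). Its difference was of the size seen for *Atoh1*, and both genes were highest on *Ezh2* cko replicate 1 and lowest on control replicate 2. *Bhlhe40*, a repressor linked to the circadian clock, and *Twist1*, a mesenchyme factor, followed with 0.15 and 0.20 (adjusted p = 0.715 and 0.756 in limma).

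Genes known to lie downstream of proneural factors all had positive differences, 17 of 17, against 43% of all genes, with a median of 0.21 and a range from 0.0093 to 0.52. Mean signals of the 17 were 7.27 to 10.89, above the median of all probe sets, 5.70, whereas the 43% also covers dim genes. The list was chosen with earlier results of these data known. None of the 17 passed the adjusted p, and 5 were higher at an unadjusted p under 0.05, *Hes6* from the members among them. *Rgs16*, a brake on G protein signalling, had 9.75, 9.73 and 9.91 on the *Ezh2* cko arrays, against 9.53, 9.44 and 9.62 on the control arrays, without overlap (log2 difference 0.27, adjusted p = 0.481 in limma). *Elavl4*, which encodes a neuronal RNA-binding protein, had 10.45, 10.62 and 10.88 in the *Ezh2* cko and 10.13, 10.36 and 10.47 in the controls (log2 difference 0.33, adjusted p = 0.606 in limma). *Gadd45g*, which is switched on as progenitors leave the cell cycle, had 10.07, 9.87 and 10.07 in the *Ezh2* cko and 9.74, 9.66 and 9.91 in the controls (log2 difference 0.24, adjusted p = 0.632 in limma). The groups of both overlapped through control replicate 3. Without *Ezh2* cko replicate 3 the list had 15 of 17 positive differences, a median of 0.15 and 0 genes at an unadjusted p under 0.05, and without control replicate 1 these were 15, 0.16 and 1. The 5 genes became 3 without *Ezh2* cko replicate 2 and 2 without control replicate 2. They became 6 without *Ezh2* cko replicate 1 and 7 without control replicate 3.

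The same arrays stood at the ends for neuron markers. As the median deviation from the mean of each gene over the 6 arrays, 18 neuron markers were at -0.080, 0.17 and 0.41 on the *Ezh2* cko arrays and -0.46, -0.069 and -0.018 on the control arrays. Of these 18, 17 had positive differences (median 0.36), none passed the adjusted p, and 11 were higher at an unadjusted p under 0.05. The 11 became 4 without *Ezh2* cko replicate 2, 1 without *Ezh2* cko replicate 3 and 2 without control replicate 1. They became 16 without *Ezh2* cko replicate 1, 10 without control replicate 2 and 13 without control replicate 3. With any 1 array left out 17 or 18 differences were positive, with medians from 0.23 to 0.48. Genes downstream of proneural factors were at -0.037, 0.069 and 0.26 in the *Ezh2* cko and -0.35, -0.067 and 0.021 in the controls, and differentiation bHLH genes at -0.072, -0.017 and 0.24 in the *Ezh2* cko and -0.22, 0.018 and 0.068 in the controls. *Elavl3* and *Elavl4* are in both the neuron and the downstream list. Hes and Hey genes had -0.0021, 0.037 and 0.13 in the *Ezh2* cko and -0.12, -0.023 and -0.032 in the controls. The part of neuronal content in the values of any member was not tested.

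**Figure D4:**
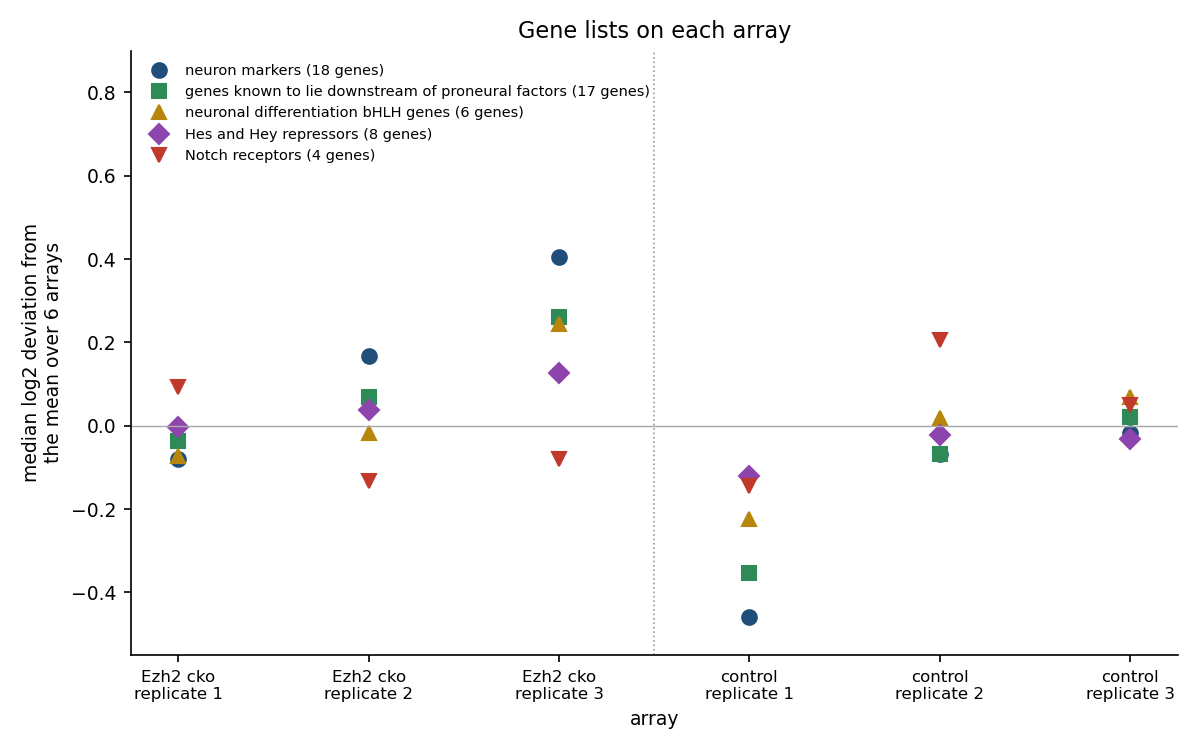
Median log2 deviation from the mean over the 6 arrays (y axis) of 5 gene lists on each array (x axis), *Ezh2* cko arrays to the left of the dotted line and control arrays to its right. Neuron markers, genes downstream of proneural factors, differentiation bHLH genes and Hes and Hey repressors are highest on *Ezh2* cko replicate 3. The Notch receptors are highest on control replicate 2, and all 5 lists are lowest on control replicate 1.

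Both *Hes1* and the neuron markers were lowest on control replicate 1. *Hes1* was highest on *Ezh2* cko replicate 1 and the neuron markers on *Ezh2* cko replicate 3. Among the controls *Hes1* differed by 0.031 and the neuron markers by 0.44. How the values of *Hes1* relate to neuronal content was not tested. Neural progenitor markers were at -0.063, 0.0028 and 0.13 in the *Ezh2* cko and -0.059, -0.067 and 0.033 in the controls. Of 12, 1 was higher and 2 lower at an unadjusted p under 0.05. *Fabp7*, a gene of radial glia, had a log2 difference of 0.49 (adjusted p = 0.219 in limma), and *Sox3* and *Prom1*, both genes of early neuroepithelium, had -0.44 and -0.16 (adjusted p = 0.325 and 0.657 in limma).

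Markers of other tissues that a midbrain dissection can hold were set beside the members. Of 12 mesenchyme markers 5 were higher and 1 lower at an unadjusted p under 0.05 (median 0.27), with medians by array of 0.030, 0.089 and 0.18 in the *Ezh2* cko and -0.37, 0.083 and -0.023 in the controls. Pericyte and smooth muscle markers had 2 higher and 2 lower of 8 (median -0.043), macrophage markers 1 higher and 0 lower of 8 (median 0.13), and erythroid markers 0 of 7 (median -0.076). Of 8 surface ectoderm markers 5 had positive and 3 negative differences (median 0.12), and 3 were higher and 0 lower at an unadjusted p under 0.05. Among them *Epcam* and *Cdh1* rose past the adjusted p (log2 differences 1.33 and 0.77, adjusted p = 0.00368 and 0.0166 in limma). The keratin genes went both ways, with 0.42 for *Krt18* (unadjusted p = 0.0307 in limma), 0.088 for *Krt8*, -0.11 for *Krt5* and -0.15 for *Krt14*. *Grhl3* had 0.16 and *Trp63* -0.061. The part of these markers in the values of the members was not tested.

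Some arrays stood at the ends for many members. *Ezh2* cko replicate 3 was the highest array for 12 of the 36 members and control replicate 1 the lowest for 12. *Ezh2* cko replicate 2 was the highest for none and the lowest for 9, and control replicate 2 was the highest for 7 and the lowest for 1. *Hes1* stood at 0.34 to 0.40 with 1 array left out (unadjusted p 0.00176 to 0.00433 in limma).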

How the data were processed

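Biotin-labelled RNA of 3 *Ezh2* cko and 3 control samples was measured on Affymetrix A430 arrays. Per the labels the authors summarised and normalized the arrays with RMA (version not given in the sources used here), and the deposited table holds log2 signals, 1 per probe set. Array signals carry no depth, and the number of arrays limits the precision.

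After removal of 64 Affymetrix control probe sets, lmFit and eBayes of limma 3.58.1 (R 4.3.3) were run on 45037 probe sets with the genotype as the only term, *Ezh2* cko minus control. Two-sided p-values were corrected by Benjamini-Hochberg across these probe sets. By the platform annotation 34945 probe sets had 1 gene symbol, 932 had several and 9160 had none, and 34741 of the first matched a gene of GRCm38.p6 by Entrez identifier. A gene is given by its probe set with the highest mean over the 6 arrays. Values per array are given for members at an unadjusted p under 0.05 and for the highest and lowest difference of each role, and the other members by ranges and counts. In the other Notch, other bHLH and downstream lists the 3 genes with the smallest p are named, and the marker lists are given by counts, with a few genes named. Members, lists and rules were chosen with earlier results of these data known. Promoters are from RefSeq. The procedure was tested on simulated data.

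Alternatives were a trended and robust prior, array weights, an unpaired test of equal variance (the methods' t-test, run on all probe sets), a filter on dim probe sets, median centring, cyclic loess, quantile normalization again, the replicate number as a block, each array left out, other choices of probe set and other thresholds. The methods give that t-test under imaging and quantification and name none for the arrays. Left-out arrays for the lists, and alternatives for roles, were added after the data were seen.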

Additional observations from a re-analysis of the deposited data

How the results depend on the processing

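Under 17 alternatives 22 members kept the sign of their difference in all, and 14 reversed in at least 1, of which 7 did so with all arrays kept. The count of members past the adjusted p was 0 in all of them, except that it was 1 (*Hes1*, adjusted p = 0.0499 in limma) with the mean of all probe sets of a gene. A threshold of 0.1 gave 0 with no other choice changed, and *Nhlh2* reached 0.0760 with the replicate block. At the threshold of the methods it was 0 to 2 with 1 array left out, the 2 being *Atoh1* and *Nhlh2* without control replicate 3. At an unadjusted p under 0.05 it was 3 of the 36 with the methods' t-test, against 8.16% of all genes. With 1 array left out it was 2 to 6, while the share of all genes was 6.82% to 10.5%. The lowest count, 2, came without *Ezh2* cko replicate 3 (6.82% of all genes), and 4 came without control replicate 2 (8.29% of all genes). With the replicate block the members past the adjusted p numbered 0, and 59 of all probe sets passed, against 85 without it. The labels number the replicates 1 to 3 in both groups. Correlations of same-numbered arrays, each centred on the mean of its group, were 0.065, -0.203 and 0.063. Of 3 *Ezh2* cko arrays 1 correlated best with its own number. With only 3 arrays per group, centred in this way, these values cannot decide whether the numbers pair the samples. Over all probe sets 0 passed the methods' t-test after adjustment and 21 to 46 passed with 1 array left out. With the mean of all probe sets 98 genes passed, against 55.

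Reversed differences ran from -0.29 to 0.10. With the probe set of largest SD they were 0.019 for *Notch1*, -0.22 for *Notch2* and -0.17 for *Rbpj*. With the mean of all probe sets they were -0.10 for *Notch2*, -0.0055 for *Dll4*, -0.044 for *Rbpj* and -0.024 for *Neurod2*. Array weights gave -0.0052 for *Notch2*, -0.020 for *Rbpj* and -0.019 for *Neurog2*, median centring 0.00099 and cyclic loess 0.0082 for *Numb*, and quantile normalization again -0.043 for *Neurod2*. With 1 array left out the differences ran from -0.099 to 0.011 for *Notch1*, -0.099 to 0.074 for *Notch2*, -0.22 to 0.017 for *Notch4*, -0.053 to 0.072 for *Dll1*, -0.044 to 0.19 for *Dll4*, -0.055 to 0.058 for *Rbpj*, -0.058 to 0.045 for *Numb*, -0.11 to 0.10 for *Numbl*, -0.090 to 0.068 for *Hes5*, -0.0080 to 0.15 for *Heyl*, -0.29 to 0.44 for *Neurog2*, -0.056 to 0.22 for *Neurod1*, -0.11 to 0.15 for *Neurod2* and -0.17 to 0.049 for *Nhlh1*. The cause was not tested. A filter on dim probe sets left 32 members.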
